A study of Mus musculus with 3 samples.

Results

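The barcodes described here are 641 droplets of a mouse dorsal root ganglion (DRG) library that carry transcripts of Mgp, Sfrp4 and Igfbp6, a fibroblast combination. A barcode entered with at least 1000 UMIs (unique molecular identifiers, each standing for 1 captured transcript), at least 3 UMIs of Mgp, at least 1 of Sfrp4 and at least 1 of Igfbp6. It also had to hold 0 UMIs of Ccl11, which marks another DRG fibroblast population, of the neuronal gene Rbfox3, of the endothelial gene Pecam1 and of the leukocyte gene Ptprc. The barcodes were thus chosen by measured UMI counts, so the levels of those 7 genes are a description of the choice. The 641 barcodes were 2.87% of the 22355 DRG barcodes with at least 1000 UMIs (95% Clopper-Pearson interval 2.65% to 3.09%), out of 23566 DRG barcodes and 81584 barcodes in the 3 libraries. They are called gated DRG barcodes below.

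The DRG library was 1 pool of 18 ganglia, spinal levels L4 to S1, from 6 C57BL/6 mice. The mice were 4 weeks old when the vector AAV-PHP.S-tdTomato (5 µL, a fluorescent reporter in an adeno-associated virus capsid that reaches peripheral neurons) was injected on the left, into the Achilles tendon sheath, and the ganglia were taken 4 weeks later. The labels disagree on whether ganglia of the uninjected side were included, and 1 label calls the vector a lentivirus. Ganglia were digested with papain, collagenase A and dispase II and enriched on an Optiprep density gradient, which can change the share of every cell type. The other 2 libraries were Achilles tendon of C57BL/6 mice, 5 per group, whose age the labels do not give. In the neurectomy group the sural nerve had been cut 1 week before the ankle was held in dorsiflexion for 4 weeks, a model of tendon overstrain. In the sham group the nerve was exposed through the biceps femoris, followed by the same immobilisation. Each group was 1 library, so no difference between groups has a replicate check, no test was possible, and every interval covers counting error alone.

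Fibroblasts of a ganglion and its nerve lie in layers: endoneurial cells between the axons, a perineurial barrier sheath around the fascicles, and an outer epineurium that joins the meninges where the root leaves the spinal canal. Mgp encodes matrix Gla protein, a vitamin K dependent inhibitor of mineralisation. Sfrp4 encodes a secreted frizzled-related protein that binds Wnt ligands outside the cell. Igfbp6 encodes an insulin-like growth factor (IGF) binding protein with a preference for IGF-II.

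The gated DRG barcodes held 3356490 UMIs, with a median of 4444 UMIs (1584 to 30200) and 2114 genes per barcode, and a median of 6.03% mitochondrial UMIs. For comparison, 933 DRG barcodes were taken with at least 1 UMI of Ccl11 and of Smoc2 and 0 of Sfrp4, Rbfox3, Pecam1 and Ptprc, called Ccl11/Smoc2 barcodes. Their medians were 3637 UMIs and 3.59% mitochondrial UMIs. The other 21714 DRG barcodes with at least 1000 UMIs had a median of 3573.5 UMIs. The same gate took 796 neurectomy tendon barcodes, with a median of 4239.5 UMIs, and 809 sham tendon barcodes, with a median of 8497 UMIs. The DRG and tendon libraries shared 153 (neurectomy) and 189 (sham) barcode sequences, and none was gated in both libraries of a pair.

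Fibroblast markers were present in nearly every gated DRG barcode. A list of 16 general fibroblast genes, such as Col1a1, Dcn and Pdgfra, held over 0.5% of the UMIs in 630 of 641 barcodes (98.3%). It held over 0.5% of the UMIs in 99.8% of Ccl11/Smoc2 barcodes, and summed to 21398 CPM in gated DRG barcodes and 52607 CPM in Ccl11/Smoc2 barcodes. CPM are counts per 1000000 UMIs of a set. Collagen I transcripts were found widely, with Col1a1 in 98.9% and Col1a2 in 98.3% of gated DRG barcodes. The receptor gene Pdgfra was found in 38.7% of gated DRG barcodes and Lum, a small proteoglycan of collagen fibrils, in 14.7%. After thinning every barcode to 1000 UMIs, Col1a1 was found in 86.7% of gated DRG barcodes, against 0.601%, 1.87% and 1.07% of DRG barcodes with at least 2 UMIs of Rbfox3, Pecam1 or Ptprc. Dcn, decorin, was found in 80.7% of gated DRG barcodes after thinning, against 3.72%, 2.37% and 2.32% of those 3 sets.

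Markers of other cell types were low in most gated DRG barcodes and concentrated in few of them. The myelinating Schwann cell list of 6 genes summed to 1218 CPM in gated DRG barcodes, against 1256 CPM in Ccl11/Smoc2 barcodes, and exceeded 0.5% of the UMIs in 35 gated DRG barcodes. Satellite glia markers summed to 652 CPM in gated DRG barcodes and 791 CPM in Ccl11/Smoc2 barcodes, neuron markers to 380 and 544 CPM, mural cell markers to 254 and 110 CPM, and endothelial markers to 90.3 and 62.3 CPM, in the same order of sets. Kdr and Tie1 among the endothelial markers, Mrc1 among the macrophage markers and Cd3e, Cd3d, Nkg7 and Ms4a1 among the lymphocyte markers were at 0 in gated DRG barcodes. Both sets were chosen with 0 UMIs of Rbfox3, Pecam1 and Ptprc. That choice lowers neuron, endothelial and leukocyte markers in advance, so their low levels are no separate check of the gate. The neutrophil markers summed to 493 CPM in gated DRG barcodes, against 4.24 CPM in Ccl11/Smoc2 barcodes, and 1 gated DRG barcode gave 18.1% of its UMIs to them. That barcode held 99.2% of the 848 S100a8 UMIs. In all, 60 gated DRG barcodes (9.36%) had over 0.5% of their UMIs in a list of another cell type, and 581 remain without them.

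The gate genes were among the most abundant transcripts of the chosen barcodes. Mgp had 15791 UMIs, 4705 CPM, with a median of 17 UMIs per gated DRG barcode and a highest value of 257. Igfbp6 had 3815 CPM, with a median of 13 UMIs and a highest value of 185. Sfrp4 had 3714 CPM, with a median of 12 UMIs and a highest value of 186. The barcodes at the limits were few: 30 held Mgp at its minimum of 3 UMIs, 48 held 1 UMI of Sfrp4 and 24 held 1 UMI of Igfbp6. Outside the gate, 83 barcodes failed on Mgp alone and 170 on Sfrp4 alone. Those failing on Sfrp4 alone had 6604 CPM of Apod, a lipocalin, and 94 barcodes failing on Ccl11 alone had 6836 CPM of Apod, against 1057 CPM in gated DRG barcodes. The barcodes just outside these 2 limits thus carried more Apod than those inside.

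Beside the gate genes, the gated DRG barcodes were rich in mitochondrial transcripts and in transcripts of secreted matrix and growth factor binding proteins. The 20 most abundant genes were ATP6, CYTB, Malat1, COX2, COX3, COX1, Fth1, Igfbp5, Tmsb4x, Dcn, Mgp, Sparc, Cst3, Igfbp6, Apoe, Tpt1, Sfrp4, ND4, Col3a1 and Rpl41. Igfbp5, which binds IGFs and matrix, had 6310 CPM and was found in 94.7% of gated DRG barcodes, with a median of 22 UMIs and a highest value of 265. Decorin (Dcn), which coats collagen fibrils, had 4955 CPM and was found in 92.5%. The collagen-binding Sparc had 4622 CPM and the protease inhibitor Cst3 had 4499 CPM. Further down the order, 1500015O10Rik, listed as Ecrg4 in RefSeq and encoding a secreted peptide precursor, had 3185 CPM and was found in 89.9%. Col12a1, a fibril-associated collagen, had 1895 CPM and was found in 90.6%. Most gated DRG barcodes carried these genes, so their sums do not rest on a few droplets.

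Apoe and Ptgds were different. Apoe had 3808 CPM in gated DRG barcodes, but the median barcode held 2 UMIs and 33 of the 641 barcodes held 75.1% of its UMIs. Ptgds, the lipocalin-type prostaglandin D synthase, had 1327 CPM, but it was found in 7.80% of gated DRG barcodes and 33 barcodes held 99.6% of its UMIs. The highest single barcode held 1771 Ptgds UMIs.

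**Figure D1:**
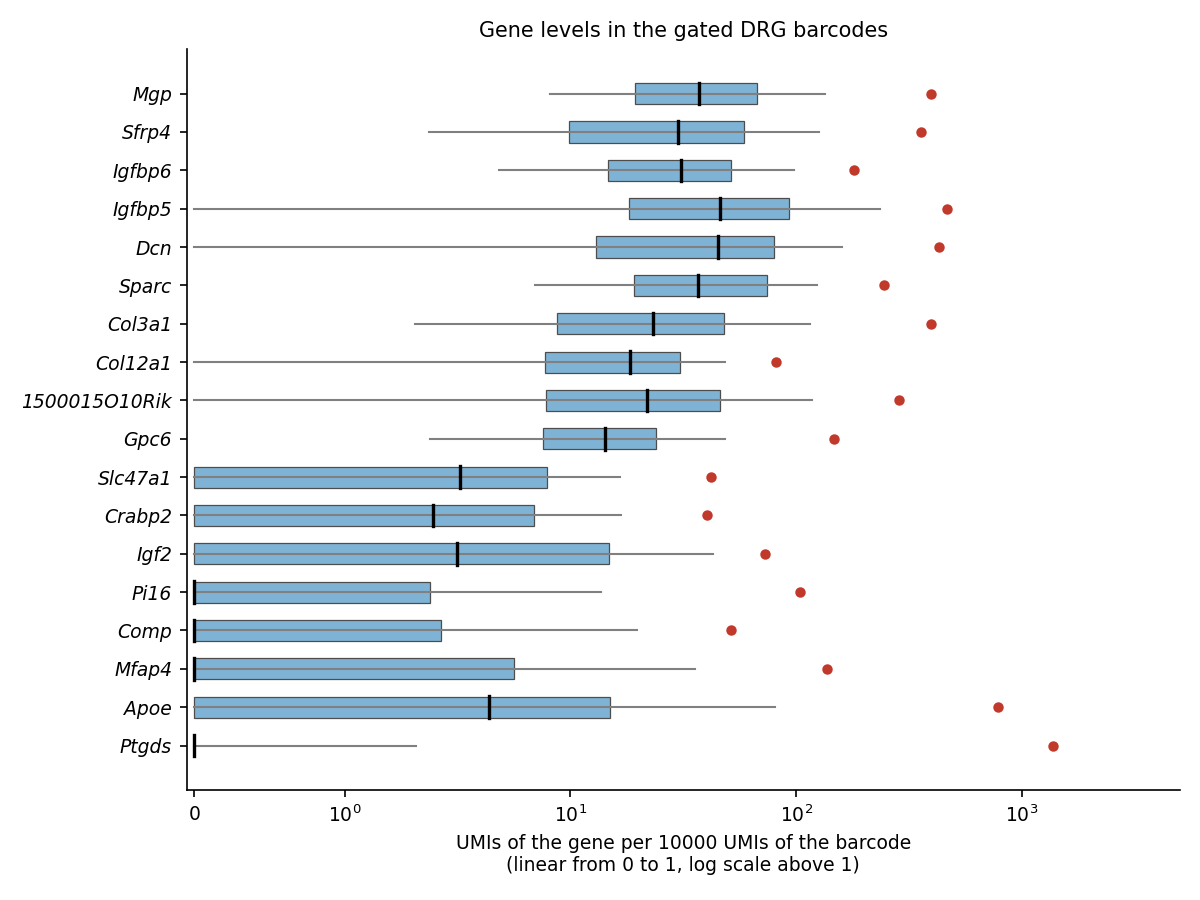
Levels of 18 genes in the 641 gated DRG barcodes, as UMIs of the gene per 10000 UMIs of the barcode (linear from 0 to 1, log scale above 1). Boxes span the quartiles, black bars mark medians, lines span the 5th to 95th percentile and red points mark the highest barcode. Medians are 36.9 for Mgp, 46.1 for Igfbp5 and 0 for Ptgds, whose highest barcode reaches 1372.

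The reference table of promoter windows holds entries for Igfbp6, a gate gene, and for Igfbp5 and Igfbp4, a pair of IGF binding proteins at higher levels in gated DRG than in Ccl11/Smoc2 barcodes. The 250 bases before each annotated start are shown 5′ to 3′ on the gene's strand (RefSeq, build GRCm38.p6), so that these genes of the family can be compared. Capitals mark matches, on either strand, to the TATA box, searched as TATAAA, to the GC box, searched as GGGCGG, and to the CCAAT box, searched by those letters. No match of these motifs overlapped another.
Igfbp6: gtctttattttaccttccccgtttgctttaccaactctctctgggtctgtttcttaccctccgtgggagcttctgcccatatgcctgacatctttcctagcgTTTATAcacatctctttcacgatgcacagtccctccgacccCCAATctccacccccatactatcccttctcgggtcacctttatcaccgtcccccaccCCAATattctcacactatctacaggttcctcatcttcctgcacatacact
Igfbp5: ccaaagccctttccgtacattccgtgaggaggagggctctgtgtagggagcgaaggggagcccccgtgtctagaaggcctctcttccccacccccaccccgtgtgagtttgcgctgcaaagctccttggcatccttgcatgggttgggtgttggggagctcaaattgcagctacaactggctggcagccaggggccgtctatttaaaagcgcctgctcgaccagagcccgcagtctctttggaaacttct
Igfbp4: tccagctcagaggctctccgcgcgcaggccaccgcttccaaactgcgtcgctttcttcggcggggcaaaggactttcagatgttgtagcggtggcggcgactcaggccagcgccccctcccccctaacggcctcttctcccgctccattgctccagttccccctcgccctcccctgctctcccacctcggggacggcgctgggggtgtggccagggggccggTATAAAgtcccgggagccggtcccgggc
The Igfbp6 window lies at chr15:102143936-102144185 on the plus strand and held 1 TATA box match and 2 CCAAT matches. The Igfbp5 window lies at chr1:72874866-72875115 on the minus strand and held none of the 3 motifs. The Igfbp4 window lies at chr11:99040994-99041243 on the plus strand and held 1 TATA box match. Among all 32851 windows of this length, 12.4% held the TATA box, 32.7% the GC box and 33.8% the CCAAT box. Of the windows shown, Igfbp6 and Igfbp4 held the exact TATA box letters and Igfbp5 did not. The Igfbp6 match was on the opposite strand in the middle part of its window, and the Igfbp4 match lay near the annotated start. A match or lack of these letters does not show whether a TATA box is in use. Mgp and Sfrp4 are named without a window.

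Free RNA in droplets can give a UMI of an abundant transcript to any barcode, so detection was compared after every barcode was thinned to 1000 UMIs. No barcode was lost by this step. Igfbp5 was then found in 83.9% of gated DRG barcodes (unthinned 94.7%) and 13.2% of Ccl11/Smoc2 barcodes (unthinned 23.2%). In DRG barcodes with at least 2 UMIs of Rbfox3, Pecam1 or Ptprc, cells that should lack it or hold little, the thinned Igfbp5 shares were 1.24%, 5.85% and 1.07%. 1500015O10Rik was found in 76.3% of gated DRG barcodes (unthinned 89.9%) and 5.57% of Ccl11/Smoc2 barcodes (unthinned 12.9%), against 0.225%, 0.996% and 0.357% in the Rbfox3, Pecam1 and Ptprc sets. Col12a1 was found in 72.5% of gated DRG barcodes (unthinned 90.6%) and 1.50% of Ccl11/Smoc2 barcodes (unthinned 5.25%), with 0.676%, 1.62% and 0.891% in those 3 sets. All 3 genes stood far above the level in neurons, endothelial cells and leukocytes of the same library. Apoe was found in 44.5% of gated DRG barcodes (unthinned 71.8%) and 73.8% of Ccl11/Smoc2 barcodes (unthinned 89.8%), against 28.1%, 31.8% and 42.2% in the Rbfox3, Pecam1 and Ptprc sets. Macrophages, which are leukocytes, are known to express Apoe, so the Ptprc share is not a background level for it. The unthinned median depths were 53603, 10813 and 3798 UMIs in the Rbfox3, Pecam1 and Ptprc sets, against 4444 UMIs in gated DRG barcodes. If free RNA adds a like number of UMIs to every barcode, thinning leaves less of it in deeper barcodes. The Rbfox3 and Pecam1 shares can then understate the background, and the Ptprc set was the nearest of the 3 in depth.

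**Figure D2:**
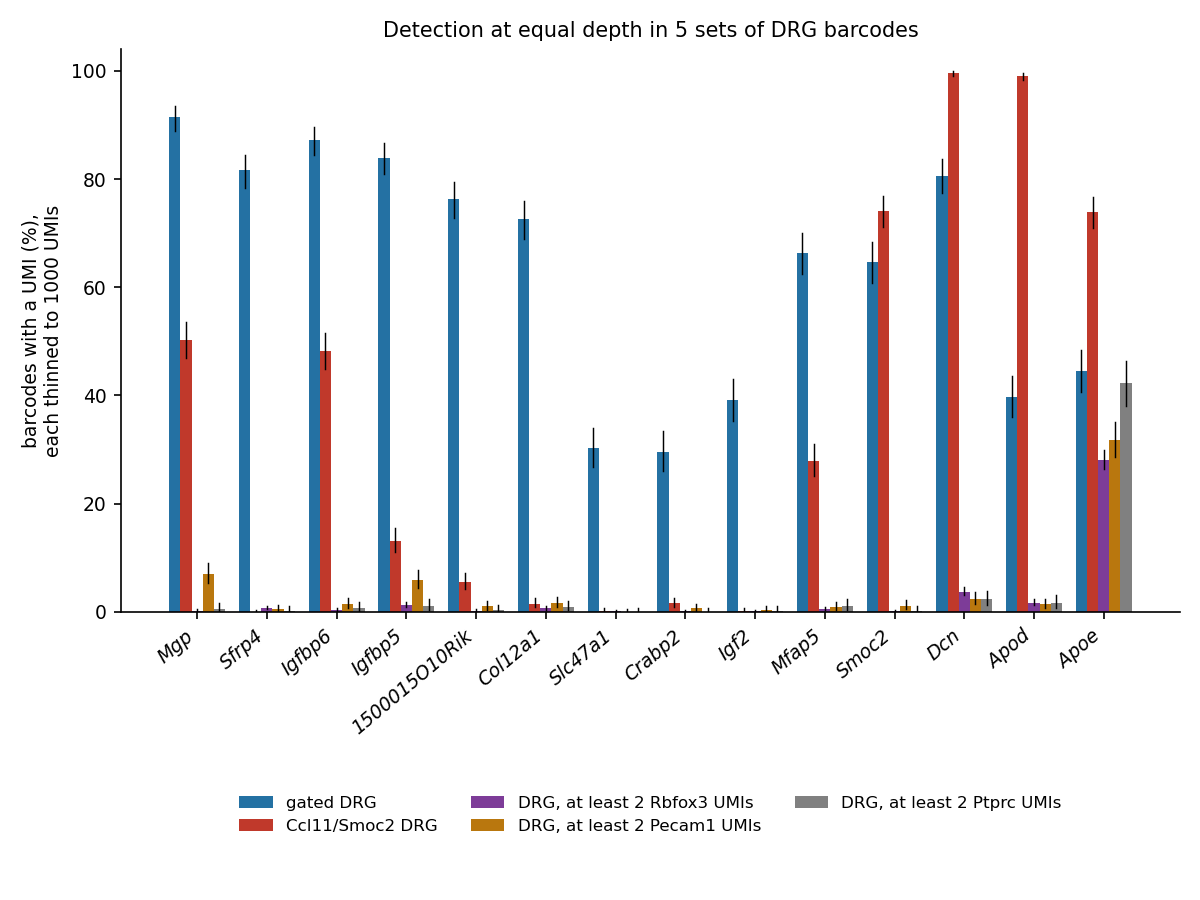
Share of barcodes with at least 1 UMI of each gene after thinning every barcode to 1000 UMIs, in gated DRG, Ccl11/Smoc2 DRG, and DRG barcodes with at least 2 UMIs of Rbfox3, Pecam1 or Ptprc. Bars are percentages and lines exact 95% binomial intervals. Igfbp5 is at 83.9% in gated DRG barcodes and 13.2% in Ccl11/Smoc2 barcodes, whereas Apoe is at 44.5% in gated DRG barcodes and 42.2% in the Ptprc set.

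The Ccl11/Smoc2 barcodes were the DRG set with the most similar profile. Across 9300 to 10610 genes, which are not independent replicates, Spearman's rho of the levels was 0.827 with Ccl11/Smoc2 barcodes, 0.727 with gated neurectomy tendon, 0.737 with gated sham tendon, and 0.610, 0.542 and 0.376 with the Pecam1, Ptprc and Rbfox3 sets. Of 9602 genes compared with Ccl11/Smoc2 barcodes, 1017 were at least 2-fold higher in gated DRG barcodes (10.6%) and 724 at least 2-fold lower (7.54%). These shares are the background for the counts of members below. The median log2 ratio over all genes was 0.14, and 0.01 under TMM scaling, a shift that moved the counts to 830 higher and 849 lower. Without the 60 gated barcodes rich in other markers the counts were 993 higher and 836 lower. The Ccl11/Smoc2 set kept its own 67 such barcodes (7.18%), so this alternative removed other markers from 1 side only. With it the median log2 ratio of the myelinating Schwann cell list went from 0.04 to -3.47. A gene enters a comparison when its summed count reaches 50 and its level reaches 10 CPM in the set where it is higher, and a gene used by either gate is left out of the counts of its list.

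Among the largest differences were genes of matrix, ion transport and growth factor signalling. Comp, which encodes a pentameric cartilage and tendon matrix protein, had 275 CPM in gated DRG barcodes and 0.530 CPM, or 2 UMIs, in Ccl11/Smoc2 barcodes (log2 ratio 9.02, interval 7.16 to 12.07). Mfap4, a microfibril-associated glycoprotein, had 484 CPM in gated DRG barcodes and 3.98 CPM in Ccl11/Smoc2 barcodes (log2 ratio 6.93). Both are matrix genes found in part of the gated DRG barcodes, Comp in 29.5% and Mfap4 in 44.0%. Slc4a10, a sodium-coupled bicarbonate transporter, had 672 CPM in gated DRG barcodes and 3.71 CPM in Ccl11/Smoc2 barcodes (log2 ratio 7.50). Slc26a7, an anion exchanger, had 175 and 1.59 CPM, and Cacna2d3, an auxiliary subunit of calcium channels, had 86.4 and 0.795 CPM, the last being 3 UMIs, in gated DRG and Ccl11/Smoc2 barcodes in that order. Angpt1, the ligand of the endothelial receptor Tie2, had 165 CPM in gated DRG barcodes and 1.86 CPM in Ccl11/Smoc2 barcodes. S100a8, S100a9 and Camp, also among the 12 highest ratios, came from the single barcode rich in neutrophil transcripts, which held 98.9% of the S100a9 and 98.8% of the Camp UMIs of the gated set. Without the 60 barcodes rich in other markers the log2 ratio of Camp was -0.037, that of S100a8 0.11 and that of S100a9 0.19.

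At the other end the lowest ratio was that of Col9a2, a fibril-associated collagen, with 1.49 CPM in gated DRG barcodes and 176 CPM in Ccl11/Smoc2 barcodes (log2 ratio -6.88). Cxcl2, a neutrophil chemoattractant, had 7.45 CPM in gated DRG barcodes and 589 CPM in Ccl11/Smoc2 barcodes (log2 ratio -6.31). Ccl2, a monocyte chemoattractant, had 89.1 CPM in gated DRG barcodes and 6042 CPM in Ccl11/Smoc2 barcodes (log2 ratio -6.08). Ptx3, a soluble pattern recognition protein, had 24.4 CPM in gated DRG barcodes and 1342 CPM in Ccl11/Smoc2 barcodes. Trf, transferrin, had 36.3 and 2241 CPM, and Lif, a cytokine of the interleukin 6 family, 3.87 and 190 CPM, in gated DRG and Ccl11/Smoc2 barcodes in that order. Rbfox1, a splicing factor gene, had 10.1 CPM in gated DRG barcodes and 674 CPM in Ccl11/Smoc2 barcodes. Dlk1, Hba-a2, a haemoglobin chain gene of red blood cells, 6030408B16Rik and the laminin chain gene Lamc3 were also among the 12 lowest ratios. Markers of red blood cells, Hba-a2 among them, summed to 834 CPM in Ccl11/Smoc2 barcodes but were found in 36 of 933. The highest of these barcodes gave 23.9% of its UMIs to them. In gated DRG barcodes these markers summed to 19.4 CPM and were found in 54 of 641. How far the Hba-a2 ratio rests on a few Ccl11/Smoc2 barcodes was not tested. Cxcl3 was at 0 in gated DRG barcodes and at 60.2 CPM in Ccl11/Smoc2 barcodes. With that 0 set to a floor of 3 counts over the gated set, its log2 ratio was -6.07 (upper limit of the interval -5.76).

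The IGF system is 1 ligand pair, its receptors and a family of binding proteins that hold IGFs outside the cell. Of 11 genes of the list that entered, 6 were at least 2-fold higher in gated DRG barcodes than in Ccl11/Smoc2 barcodes and none was lower, with a median log2 ratio of 1.23. With barcodes weighted equally, 5 were higher and the median was 0.53. The ligand Igf2, a fetal growth factor, had 945 CPM in gated DRG barcodes and 4.77 CPM in Ccl11/Smoc2 barcodes (log2 ratio 7.63, interval 6.97 to 8.39). The ligand Igf1 had 324 CPM in gated DRG barcodes and 331 CPM in Ccl11/Smoc2 barcodes, within 2-fold. Among the binding proteins, Igfbp5 had 6310 CPM in gated DRG barcodes and 300 CPM in Ccl11/Smoc2 barcodes (log2 ratio 4.40), and Igfbp4 had 1059 and 365 CPM (log2 ratio 1.54). Igfbp2 had 129 CPM in gated DRG barcodes and 6.89 CPM in Ccl11/Smoc2 barcodes, and Igfbp3 had 84.6 and 3.98 CPM. Igfbp7, at 1180 CPM in gated DRG barcodes and 1120 CPM in Ccl11/Smoc2 barcodes, and the receptor Igf1r, at 114 and 134 CPM, were within 2-fold. The protease gene Pappa had 20.0 CPM in gated DRG barcodes and 8.48 CPM in Ccl11/Smoc2 barcodes (log2 ratio 1.23, and 0.47 with barcodes weighted equally). When barcodes with Sfrp4 were allowed among the Ccl11/Smoc2 barcodes, the log2 ratios of Igfbp4 and Pappa were both 0.67, under 2-fold.

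Wnt pathway genes outside the gate were mixed. Of 15 ligands and modulators, 7 were higher and 3 lower in gated DRG barcodes (median log2 ratio 0.67), and 5 were lower without the 60 barcodes rich in other markers. Rspo3, which amplifies Wnt signalling, had 128 CPM in gated DRG barcodes and 2.92 CPM in Ccl11/Smoc2 barcodes (log2 ratio 5.45). Sfrp2, a relative of Sfrp4, had 68.5 CPM in gated DRG barcodes and 0 UMIs in Ccl11/Smoc2 barcodes. It was 86.2-fold higher with that 0 set to 3 counts, and it was found in 26 of the 641 gated barcodes. When barcodes with Sfrp4 were allowed among the Ccl11/Smoc2 barcodes, the log2 ratio of Sfrp2 was -0.0011, so that its difference rests on that choice. The antagonist Dkk3 had 135 CPM in gated DRG barcodes and 16.2 CPM in Ccl11/Smoc2 barcodes. Wnt2 had 23.2 and 0.795 CPM and Wnt9a 45.9 and 3.71 CPM, in gated DRG and Ccl11/Smoc2 barcodes in that order. Lef1, a transcription factor of the pathway, was lower, with 1.19 CPM in gated DRG barcodes and 16.4 CPM in Ccl11/Smoc2 barcodes.

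BMP and TGF-beta ligands and their extracellular inhibitors were often higher. Of 24 genes, 14 were at least 2-fold higher and 4 lower in gated DRG barcodes (median log2 ratio 1.14). The BMP antagonist Nog had 82.8 CPM in gated DRG barcodes and 0.795 CPM, or 3 UMIs, in Ccl11/Smoc2 barcodes (log2 ratio 6.70, interval 5.14 to 8.99). Bmper, a BMP-binding regulator, had 279 CPM in gated DRG barcodes and 21.2 CPM in Ccl11/Smoc2 barcodes. The ligand Bmp6 had 182 CPM in gated DRG barcodes and 46.4 CPM in Ccl11/Smoc2 barcodes, whereas the ligand Bmp5 had 44.4 and 422 CPM and was lower. Fstl1, a follistatin-like secreted protein, had 1593 CPM in gated DRG barcodes and 756 CPM in Ccl11/Smoc2 barcodes (log2 ratio 1.08, and 0.94 under TMM scaling). Among 11 other genes of mineralisation and vitamin K metabolism, 3 were higher and 1 lower. Alkaline phosphatase (Alpl) had 54.8 CPM in gated DRG barcodes and 4.24 CPM in Ccl11/Smoc2 barcodes, osteopontin (Spp1) had 140 and 703 CPM, and the vitamin K epoxide reductase gene Vkorc1 had 255 and 256 CPM.

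The 2 sets of DRG fibroblasts differed in which nerve layer their markers resembled, by lists taken from the general literature on nerve fibroblasts. Sfrp4 and Ccl11 were used to choose both sets, and Smoc2, of the endoneurial list, to choose the Ccl11/Smoc2 barcodes. That choice can fix part of the contrast between layers, and how large a part was not tested. Of 14 epineurial and adventitial genes, 12 were higher and 1 lower in gated DRG barcodes (median log2 ratio 2.23). These counts are of summed UMIs, and genes of the list were found in 3.28% (Adgrd1) to 96.9% (Mfap5) of gated DRG barcodes. For Pi16, 33 of the 641 barcodes held 61.7% of the UMIs. Pi16, a peptidase inhibitor that marks adventitial fibroblasts, had 285 CPM in gated DRG barcodes and 4.77 CPM in Ccl11/Smoc2 barcodes (log2 ratio 5.90). Mfap5, a microfibril protein, had 1476 CPM in gated DRG barcodes and 358 CPM in Ccl11/Smoc2 barcodes. Ly6a had 357 and 32.3 CPM, and Clec3b, which encodes tetranectin, 220 and 41.1 CPM, in gated DRG and Ccl11/Smoc2 barcodes in that order. The log2 ratio of Clec3b, 2.42, was 0.90 when barcodes with Sfrp4 were allowed among the Ccl11/Smoc2 barcodes. That of Sfrp2, also of this list, was then -0.0011. Cd34, of the same list, had 123 CPM in gated DRG barcodes and 205 CPM in Ccl11/Smoc2 barcodes, within 2-fold, and is not the lower gene counted above. The epineurial list as a whole summed to 3381 CPM in gated DRG barcodes and 857 CPM in Ccl11/Smoc2 barcodes.

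The endoneurial list showed the opposite order, with 8 of 10 genes lower and 2 higher in gated DRG barcodes (median log2 ratio -4.16, leaving out Smoc2). Apod had 1057 CPM in gated DRG barcodes and 35460 CPM in Ccl11/Smoc2 barcodes (log2 ratio -5.07). Abca8a, a lipid transporter, had 77.2 CPM in gated DRG barcodes and 732 CPM in Ccl11/Smoc2 barcodes, and Sox9, a transcription factor, had 31.0 and 184 CPM. The 2 higher members were Cxcl14, at 85.2 CPM in gated DRG barcodes and 11.7 CPM in Ccl11/Smoc2 barcodes, and Coch, at 41.1 and 1.86 CPM. Coch came from 18 gated barcodes. Smoc2 itself, which the gate did not use, was found in 92.7% of gated DRG barcodes at 1229 CPM.

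Of 11 perineurial genes 3 were higher and 1 lower, and the median log2 ratio of -0.16 became 0.00 when barcodes were weighted equally, with 2 lower. Without the 60 barcodes rich in other markers 3 were lower. Lypd2 had 151 CPM in gated DRG barcodes and 40.3 CPM in Ccl11/Smoc2 barcodes, and the p53 target Perp had 104 and 17.8 CPM. The barrier genes Slc2a1, a glucose transporter at 56.3 CPM in gated DRG barcodes and 65.7 CPM in Ccl11/Smoc2 barcodes, and Cldn1, a tight junction claudin at 40.8 and 73.4 CPM, were within 2-fold.

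Genes known from meningeal fibroblasts were higher in gated DRG barcodes in 11 of 17 cases and lower in 3 (median log2 ratio 1.55). Slc47a1, a transporter that extrudes organic cations, had 481 CPM in gated DRG barcodes and 5.04 CPM in Ccl11/Smoc2 barcodes (log2 ratio 6.58, interval 5.93 to 7.31). Crabp2, which binds retinoic acid, had 452 CPM in gated DRG barcodes and 40.3 CPM in Ccl11/Smoc2 barcodes. Fxyd5, a regulator of the sodium pump, had 1119 CPM in gated DRG barcodes and 45.6 CPM in Ccl11/Smoc2 barcodes. The transcription factor genes Zic1, at 396 CPM in gated DRG barcodes and 113 CPM in Ccl11/Smoc2 barcodes, Foxc1, at 254 and 94.6 CPM, and Foxd1, at 204 and 90.4 CPM, were also higher. The 3 lower genes were Dpep1, a membrane dipeptidase, at 12.5 CPM in gated DRG barcodes and 188 CPM in Ccl11/Smoc2 barcodes, Slc6a13, a GABA transporter, at 9.24 and 74.2 CPM, and the transcription factor Tbx18, at 3.58 and 32.3 CPM. The list summed to over 0.5% of the UMIs in 33.4% of gated DRG barcodes and 0.965% of Ccl11/Smoc2 barcodes, and Slc22a6 was at 0 in both sets.

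Collagens as a family did not move one way: of 24 genes, 8 were higher and 5 lower in gated DRG barcodes, and the median log2 ratio of 0.08 changed sign to -0.06 under TMM scaling. Col1a1, at 3163 CPM in gated DRG barcodes and 3011 CPM in Ccl11/Smoc2 barcodes, and Col3a1, at 3508 and 2971 CPM, were within 2-fold. Col12a1 had 1895 CPM in gated DRG barcodes and 30.8 CPM in Ccl11/Smoc2 barcodes (log2 ratio 5.95). Col8a1, a short-chain collagen, had 941 CPM in gated DRG barcodes and 391 CPM in Ccl11/Smoc2 barcodes, and Col14a1, a relative of Col12a1, had 191 and 17.0 CPM. The basement membrane collagen Col15a1 was lower, with 83.1 CPM in gated DRG barcodes and 958 CPM in Ccl11/Smoc2 barcodes. Elastic fibre genes were higher in 8 of 15 cases and lower in 2 (median log2 ratio 1.38). Fbln1, fibulin 1, had 656 CPM in gated DRG barcodes and 24.4 CPM in Ccl11/Smoc2 barcodes, the crosslinking enzyme gene Lox 521 and 22.0 CPM, and elastin (Eln) 170 and 10.3 CPM.

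Proteoglycans were split, with 7 of 16 higher and 5 lower. Decorin had 4955 CPM in gated DRG barcodes and 27059 CPM in Ccl11/Smoc2 barcodes (log2 ratio -2.45), and Lum had 152 and 4666 CPM (log2 ratio -4.94). Biglycan (Bgn) had 1597 CPM in gated DRG barcodes and 357 CPM in Ccl11/Smoc2 barcodes, and fibromodulin (Fmod) had 118 and 1.59 CPM. So among relatives of 1 protein family, decorin and lumican were lower and biglycan and fibromodulin higher. Of 21 matricellular and adhesive genes, 7 were higher and 8 lower. The lower ones included the laminin chain Lama2, at 161 CPM in gated DRG barcodes and 1530 CPM in Ccl11/Smoc2 barcodes, and Sparcl1, at 62.6 and 748 CPM. Thbs2, thrombospondin 2, was higher, with 256 CPM in gated DRG barcodes and 79.3 CPM in Ccl11/Smoc2 barcodes. Of 20 proteases and inhibitors 7 were higher and 1 lower, the lower one being the gelatinase gene Mmp2, at 69.4 CPM in gated DRG barcodes and 474 CPM in Ccl11/Smoc2 barcodes, and 2 were lower with barcodes weighted equally.

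Chemokine and cytokine genes were lower in 8 of 14 cases and higher in 1 (median log2 ratio -1.91). Ccl11, itself a chemokine gene, was left out of this count but was used to choose both sets. Genes that vary with Ccl11 can differ through that choice, whose part in the chemokine difference was not tested. Cxcl1 had 86.7 CPM in gated DRG barcodes and 1695 CPM in Ccl11/Smoc2 barcodes, Ccl7 had 66.7 and 2256 CPM, and Il6 had 92.1 and 571 CPM. Within the lipid list, Cebpd, a stress-responsive transcription factor, had 862 CPM in gated DRG barcodes and 4242 CPM in Ccl11/Smoc2 barcodes. Of 20 immediate early and heat shock genes, which tissue digestion can induce, 2 were higher and 2 lower, and none was higher under TMM scaling. Fos had 2146 CPM in gated DRG barcodes and 1561 CPM in Ccl11/Smoc2 barcodes, and Jund had 1955 and 4264 CPM (log2 ratio -1.13, and -0.92 with a minimum of 5000 UMIs). The part of digestion in the chemokine difference was not tested. Of 9 lipid genes 4 were lower and none higher, of 14 interferon genes 2 were higher and 3 lower, and all 3 cell cycle genes that entered were within 2-fold. Complement genes were higher in 5 of 11 cases and lower in 2, with clusterin (Clu) at 581 CPM in gated DRG barcodes and 24.9 CPM in Ccl11/Smoc2 barcodes.

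Axon guidance genes were higher in 11 of 21 cases and lower in 5 (median log2 ratio 1.65). The secreted ligand Slit2 had 535 CPM in gated DRG barcodes and 23.6 CPM in Ccl11/Smoc2 barcodes (log2 ratio 4.50), and netrin 1 (Ntn1) had 316 and 76.1 CPM. The semaphorin Sema3d had 172 CPM in gated DRG barcodes and 13.3 CPM in Ccl11/Smoc2 barcodes, and the ephrin receptor Epha3 had 65.8 and 1.06 CPM. Netrin 4 (Ntn4) went the other way, with 5.36 CPM in gated DRG barcodes and 163 CPM in Ccl11/Smoc2 barcodes. Of 16 neurotrophic genes 4 were higher and 5 lower. Pleiotrophin (Ptn) had 624 CPM in gated DRG barcodes and 186 CPM in Ccl11/Smoc2 barcodes, and the GDNF co-receptor Gfra1 had 17.9 and 207 CPM. Of 19 FGF pathway genes 2 were higher and 8 lower. Fgf1 had 31.9 CPM in gated DRG barcodes and 25.7 CPM in Ccl11/Smoc2 barcodes and Fgfr1 had 265 and 341 CPM, both within 2-fold. The feedback gene Spry2 had 66.4 CPM in gated DRG barcodes and 368 CPM in Ccl11/Smoc2 barcodes. The glypicans were opposed: Gpc6 had 1739 CPM in gated DRG barcodes and 450 CPM in Ccl11/Smoc2 barcodes, and Gpc3 had 421 and 2423 CPM.

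**Figure D3:**
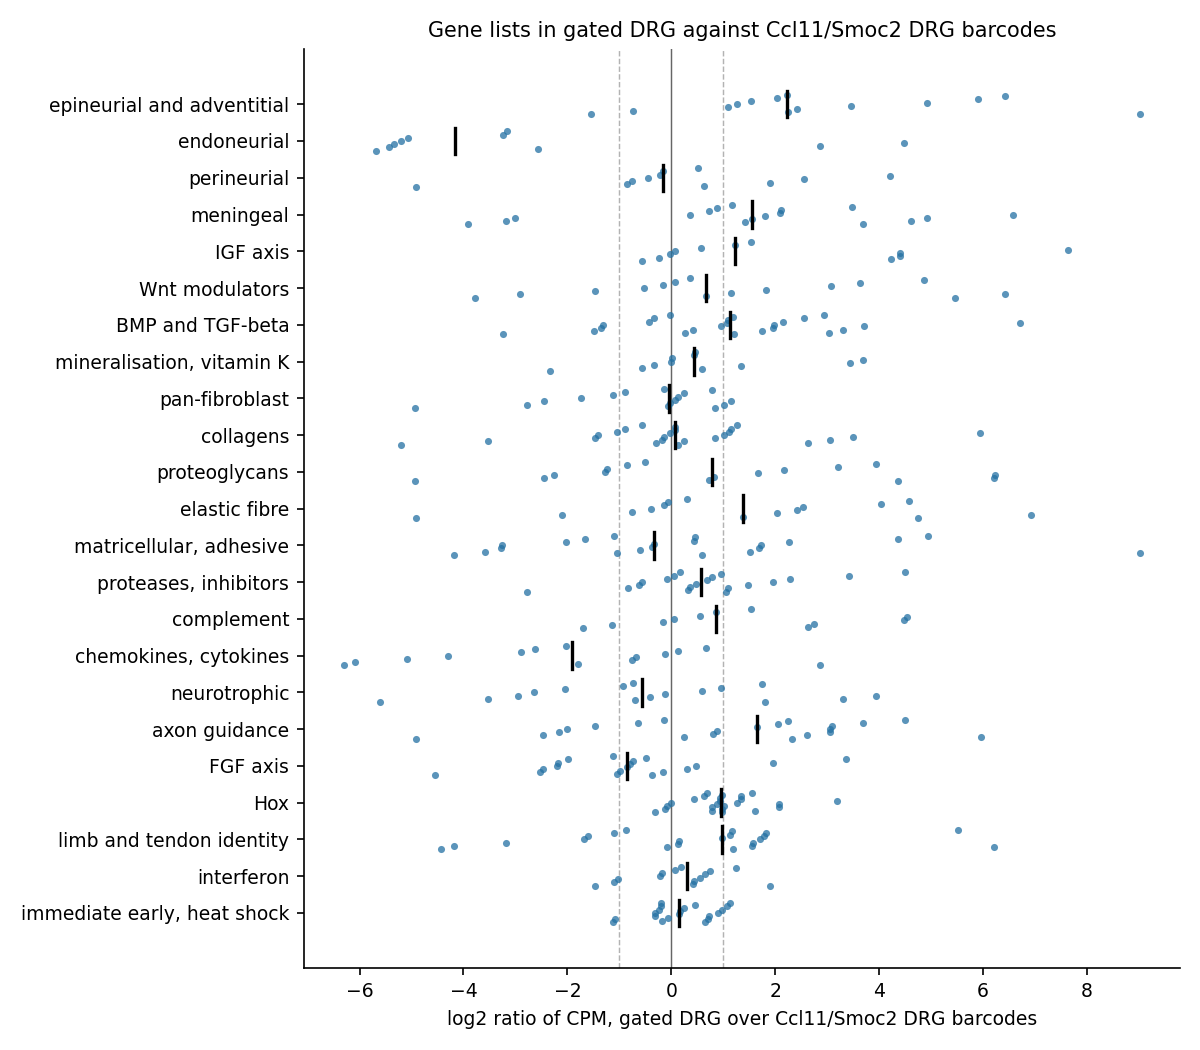
Log2 ratio of CPM, gated DRG over Ccl11/Smoc2 DRG barcodes, for each gene that entered in 23 lists, leaving out genes either gate used. Points are genes, black bars list medians and dashed lines mark 2-fold, with genes at 0 UMIs in 1 set drawn at their bound. The endoneurial list has its median at -4.16 and the epineurial and adventitial list at 2.23.

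Of 24 Hox genes, 9 were higher in gated DRG barcodes and none was lower (median log2 ratio 0.96). Hoxa10, an AbdB-type gene of the lumbosacral region, had 105 CPM in gated DRG barcodes and 25.2 CPM in Ccl11/Smoc2 barcodes. Hoxc10 had 139 and 70.5 CPM in that order, within 2-fold. Hoxc6 had 121 CPM in gated DRG barcodes and 47.7 CPM in Ccl11/Smoc2 barcodes, and Hoxd11 had 24.1 and 2.65 CPM. Of 21 limb and tendon identity genes 10 were higher and 6 lower. Mkx, a tendon transcription factor, had 36.6 CPM in gated DRG barcodes and 0 UMIs in Ccl11/Smoc2 barcodes, 46.1-fold higher with that 0 set to 3 counts. Meox1 had 2.38 CPM in gated DRG barcodes and 51.4 CPM in Ccl11/Smoc2 barcodes. Twist1 had 323 CPM in gated DRG barcodes and 110 CPM in Ccl11/Smoc2 barcodes, and Nr2f1 had 215 and 60.7 CPM.

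Against the other 21714 DRG barcodes, which hold neurons, glia, vascular and immune cells and other fibroblasts together, 2029 of 10788 genes were at least 2-fold higher in gated DRG barcodes (18.8%) and 2689 lower (24.9%). The choice of fibroblasts fixes much of this difference, and 15 of 16 general fibroblast genes were higher. The highest ratio was that of the potassium channel gene Kcnj15, at 54.2 CPM in gated DRG barcodes and 0.166 CPM in other DRG barcodes (log2 ratio 8.35). The imprinted pair Igf2, at 945 CPM in gated DRG barcodes and 4.23 CPM in other DRG barcodes, and H19, at 564 and 2.98 CPM, came next. Dio2, which activates thyroid hormone and was also among the 12 highest, had 257 CPM in gated DRG barcodes and 1.93 CPM in other DRG barcodes. Kcnj15 was found in 90 of the 641 gated barcodes and H19 in 361. The lowest ratio was that of D130079A08Rik, at 1 UMI in gated DRG barcodes and 103 CPM in other DRG barcodes. Among the 12 lowest were also the nociceptor channel gene Trpv1, at 1 UMI in gated DRG barcodes and 81.3 CPM in other DRG barcodes, and the endothelial gene Cldn5, at 1 UMI and 54.4 CPM. When barcodes were weighted equally, 1282 genes were higher in gated DRG barcodes.

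The gated DRG barcodes were not uniform, and the following splits were chosen after the values were seen. Slc47a1 was found in 426 of them (66.5%), with a median depth of 4689 UMIs, against 4186 UMIs in the 215 without it. Crabp2 was found in 70.7% of barcodes with Slc47a1 and 36.7% of those without it, and in 36.2% and 16.7% after thinning to 1000 UMIs. Igf2 was found in 72.8% of barcodes with Slc47a1 and 34.4% without it, and in 50.9% and 15.8% after thinning. Slc47a1 itself was not thinned in these splits, so the sets still differ in depth as given. Igf2 had 1239 CPM in barcodes with Slc47a1 and 293 CPM in those without it, 1500015O10Rik had 3955 and 1477 CPM, and Ptn had 805 and 224 CPM. Mgp, at 5262 CPM in barcodes with Slc47a1 and 3468 CPM in those without it, and Igfbp5, at 5888 and 7245 CPM, were within 2-fold. The barcodes without Slc47a1 had more of Clec3b, with 110 CPM in barcodes with Slc47a1 and 464 CPM in those without it, and of Cxcl12, with 57.1 and 274 CPM.

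Pi16 was found in 220 gated DRG barcodes (34.3%), with a median depth of 4817 UMIs, against 4291 UMIs in the 421 without it. Clec3b was found in 45.0% of barcodes with Pi16 and 10.7% of those without it, and in 26.8% and 5.46% after thinning. Ly6a had 798 CPM in barcodes with Pi16 and 114 CPM in those without it, Cd34 had 267 and 43.0 CPM, and Ly6c1 had 139 and 10.2 CPM. These are genes of adventitial fibroblasts, and the Ly6 genes belong to a family of close copies among which reads can be split. Slc47a1, at 462 CPM in barcodes with Pi16 and 491 CPM in those without it, Crabp2, at 461 and 446 CPM, and Igf2, at 1006 and 911 CPM, did not differ by 2-fold. Pi16 was found in 31.0% of barcodes with Slc47a1 and 40.9% of those without it, and in 12.7% and 20.9% after thinning. Both Pi16 and Slc47a1 were found in 132 barcodes, Slc47a1 without Pi16 in 294, Pi16 without Slc47a1 in 88 and neither in 127.

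**Figure D4:**
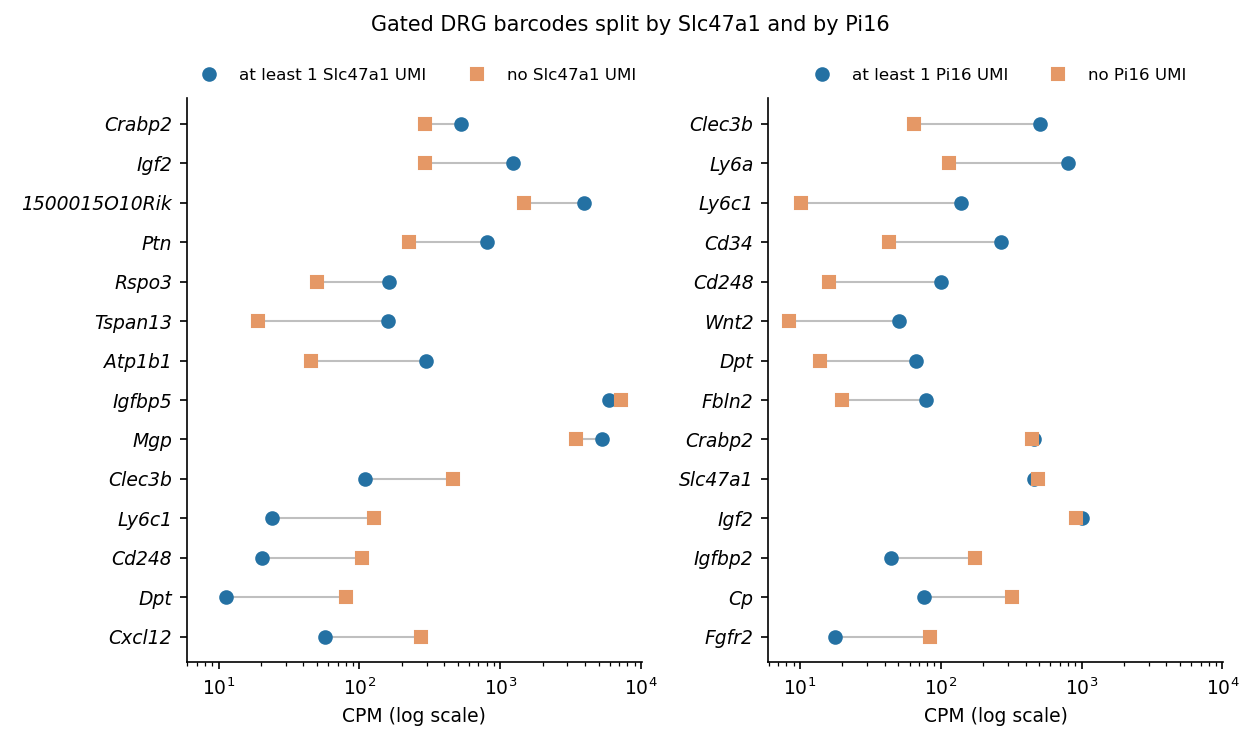
CPM (log scale) of 14 genes in gated DRG barcodes with at least 1 UMI of Slc47a1 (left, circles) or Pi16 (right, circles) and in those with none (squares). Igf2 is at 1239 CPM with Slc47a1 and 293 CPM without it, and at 1006 CPM with Pi16 and 911 CPM without it.

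Comp was found in 189 gated DRG barcodes (29.5%), which had 6168 CPM of Col3a1, against 2525 CPM in those without Comp. Chad, which encodes chondroadherin, had 61.8 CPM in barcodes with Comp and 4.49 CPM in those without it, and Fmod had 225 and 77.9 CPM. Sfrp2 was found in 26 gated DRG barcodes (4.06%). They had 688 CPM of Rgs5, a pericyte gene whose part in the split was not tested, against 21.4 CPM in the other 615, and 5781 CPM of Igfbp4, against 793 CPM. Of the 191 Rgs5 UMIs of the gated set, 85.9% were in 10 barcodes and 31.4% in 1. Igf2 was low there, with 78.3 CPM in barcodes with Sfrp2 and 994 CPM in those without it. A set of 10 barcodes with at least 20 Ptgds UMIs had 1984 CPM of Prg4, which encodes lubricin, against 74.8 CPM in the other 631. A single gated DRG barcode held 31.6% of the Prg4 UMIs. These 10 also had 1483 CPM of Cldn11, a tight junction claudin, against 124 CPM, 595 CPM of the cadherin Cdh1, against 46.8 CPM, and no Mfap4 UMI. Their median depth was 10286.5 UMIs, against 4417 UMIs in the others. The 21 barcodes with at least 100 Apoe UMIs had 4626 CPM of Fabp7, a satellite glia gene, against 42.4 CPM in the other 620, and a median depth of 11097 UMIs, against 4370 UMIs. The 10 barcodes highest in Fabp7 held 76.1% of its UMIs.

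The gate was also applied to tendon to ask how far the combination of Mgp, Sfrp4 and Igfbp6 carries a shared profile across tissues. It took 5.20% of neurectomy barcodes (4.85% to 5.56%) and 4.57% of sham barcodes (4.27% to 4.89%) with at least 1000 UMIs. The gate uses UMI counts, so these shares vary with depth and do not compare how common such cells are in each tissue. With at least 10 Mgp UMIs it kept 466 of 641 DRG, 256 of 796 neurectomy and 354 of 809 sham barcodes. Levels here are CPM over the 23145 symbols that occur once in both feature tables. Mgp had 5233 CPM in gated DRG barcodes, 1223 CPM in gated neurectomy tendon barcodes and 1421 CPM in gated sham tendon barcodes. Igfbp6 had 4243 CPM in gated DRG barcodes, 2381 CPM in gated neurectomy tendon barcodes and 2398 CPM in gated sham tendon barcodes. Tissue, digestion, operation, immobilisation, vector, feature table and the sex of the mice differ together between the DRG and tendon libraries and cannot be told apart. Age may differ too, as the labels do not give it for the tendon mice. In the gated sets Xist had 0 UMIs in DRG, 5516 in neurectomy tendon and 5296 in sham tendon, and Y-linked genes had 1377, 2 and 640 UMIs. Rpl27, a ribosomal gene, had 3.65 CPM in gated DRG barcodes, 961 CPM in gated neurectomy tendon barcodes and 858 CPM in gated sham tendon barcodes, and the part of the feature tables in this was not tested.

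Against gated sham tendon, 1809 of 9464 genes were at least 2-fold higher in gated DRG barcodes (19.1%) and 1138 lower (12.0%). Against gated neurectomy tendon, 1741 of 9585 were higher (18.2%) and 1300 lower (13.6%). Both comparisons share the gated DRG barcodes, so their likeness is no second measurement. The median log2 ratio over all genes was 0.12 against neurectomy and 0.18 against sham, and 0.02 and 0.03 under TMM scaling, which gave 1488 higher and 1354 lower genes against sham.

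Meningeal genes set the gated DRG barcodes apart from tendon. Against sham 13 of 17 were higher and 3 lower (median log2 ratio 5.67), and against neurectomy 13 of 17 were higher and 3 lower (4.73). With barcodes weighted equally the medians were 4.51 against sham and 3.62 against neurectomy. Slc47a1 had 535 CPM in gated DRG barcodes, 1 UMI in gated neurectomy tendon barcodes and 0 UMIs in gated sham tendon barcodes. With that 0 set to 3 counts it was 2002-fold higher than in sham (log2 ratio 10.97, lower limit of the interval 10.67). Zic1 had 440 CPM in gated DRG barcodes and 0 UMIs in gated tendon barcodes of either group. With 0 set to 3 counts it was 1217-fold higher than in neurectomy tendon (log2 ratio 10.25, lower limit of the interval 9.95). Igf2 had 1051 CPM in gated DRG barcodes, 0.121 CPM, or 1 UMI, in gated neurectomy tendon barcodes and 0.356 CPM, or 4 UMIs, in gated sham tendon barcodes. Slc4a10 had 747 CPM in gated DRG barcodes, 0.362 CPM in gated neurectomy tendon barcodes and 0.534 CPM in gated sham tendon barcodes. These genes, which also separated gated DRG from Ccl11/Smoc2 barcodes, were close to absent from tendon barcodes with the same 3 markers. Ptgds and Fabp7, also among the highest ratios, came from few gated DRG barcodes, with 97.4% of the Ptgds and 76.1% of the Fabp7 UMIs in the 10 highest barcodes of each gene.

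Position genes differed between the tissues. Of 24 Hox genes 20 were higher and 2 lower in gated DRG than in gated sham tendon barcodes (median log2 ratio 3.04), and 18 were higher and 2 lower than in gated neurectomy tendon barcodes (2.05). Hoxb3 was among the genes near 0 in tendon, with 66.9 CPM in gated DRG barcodes, 0.362 CPM in gated neurectomy tendon barcodes and 0.267 CPM in gated sham tendon barcodes. Hoxa10 had 117 CPM in gated DRG barcodes, 80.0 CPM in gated neurectomy tendon barcodes and 68.6 CPM in gated sham tendon barcodes, within 2-fold. The hind limb genes Pitx1 and Tbx4 had 0 UMIs in gated DRG barcodes, against 30.4 and 13.4 CPM in gated sham tendon barcodes. Of 25 limb and tendon identity genes 4 were higher and 14 lower than in sham. The tendon transcription factor Scx had 1.99 CPM in gated DRG barcodes, 589 CPM in gated neurectomy tendon barcodes and 799 CPM in gated sham tendon barcodes. Thbs4, a thrombospondin of tendon, had 5.30 CPM in gated DRG barcodes, 3663 CPM in gated neurectomy tendon barcodes and 3938 CPM in gated sham tendon barcodes.

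Keratocan (Kera), a small proteoglycan, had 1 UMI in gated DRG barcodes, 357 CPM in gated neurectomy tendon barcodes and 369 CPM in gated sham tendon barcodes. Cilp, a cartilage matrix protein gene, had 0.663, 557 and 437 CPM, and S100a4, a calcium-binding protein gene, had 45.7, 4055 and 4187 CPM, in that order. Shox2, a limb homeobox gene, had 0 UMIs in gated DRG barcodes, 134 CPM in gated neurectomy tendon barcodes and 97.5 CPM in gated sham tendon barcodes.

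Of 16 general fibroblast genes 13 were lower than in sham and none higher (median log2 ratio -1.47), and of 24 collagens 15 were lower and 6 higher (-1.34). Against neurectomy 10 of 24 collagens were lower and 5 higher (-0.68). Elastic fibre genes were split, with 7 higher and 5 lower of 16 against neurectomy (0.48), and 4 higher and 5 lower of 16 against sham (0.15). Col1a1 had 3518 CPM in gated DRG barcodes, 15058 CPM in gated neurectomy tendon barcodes and 23523 CPM in gated sham tendon barcodes. Of 18 proteoglycans 12 were lower and 2 higher than in sham (1 higher with barcodes weighted equally), with lubricin (Prg4) at 150 CPM in gated DRG barcodes, 3986 CPM in gated neurectomy tendon barcodes and 5178 CPM in gated sham tendon barcodes. Col12a1 was higher than in tendon, with 2108 CPM in gated DRG barcodes, 316 CPM in gated neurectomy tendon barcodes and 335 CPM in gated sham tendon barcodes, as did Smoc2, with 1367, 61.0 and 87.2 CPM in that order. Comp and Pi16 were found in tendon too, Comp at 306 CPM in gated DRG barcodes, 923 CPM in gated neurectomy tendon barcodes and 960 CPM in gated sham tendon barcodes, and Pi16 at 317, 56.6 and 117 CPM in that order. The epineurial and adventitial list was higher in 3 and lower in 9 of 15 genes against sham. IGF genes outside the gate were higher in 4 and lower in 2 of 11 against sham, with a median log2 ratio of -0.28 that became 0.06, with 1 lower, when barcodes were weighted equally. Perineurial genes were higher in 8 and lower in 2 of 10 against neurectomy (median log2 ratio 2.99), and higher in 7 and lower in 1 of 10 against sham (3.71), medians that were 1.69 and 3.07 with barcodes weighted equally. Over all DRG features, the perineurial list summed to 695 CPM in gated DRG, 657 CPM in Ccl11/Smoc2 and 373 CPM in other DRG barcodes. Interferon genes were higher in 11 of 13 against neurectomy (2.13) and in 8 of 14 against sham (1.06), with none lower, whereas 1 was lower than in sham under TMM scaling. Over all DRG features, the interferon list summed to 1121 CPM in gated DRG, 1115 CPM in Ccl11/Smoc2 and 1029 CPM in other DRG barcodes. Its level was thus not particular to the gated DRG barcodes within their library. Cell cycle genes were lower in 12 of 13 against neurectomy (-3.44) and in 5 of 8 against sham (-1.26), where 1 was higher.

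**Figure D5:**
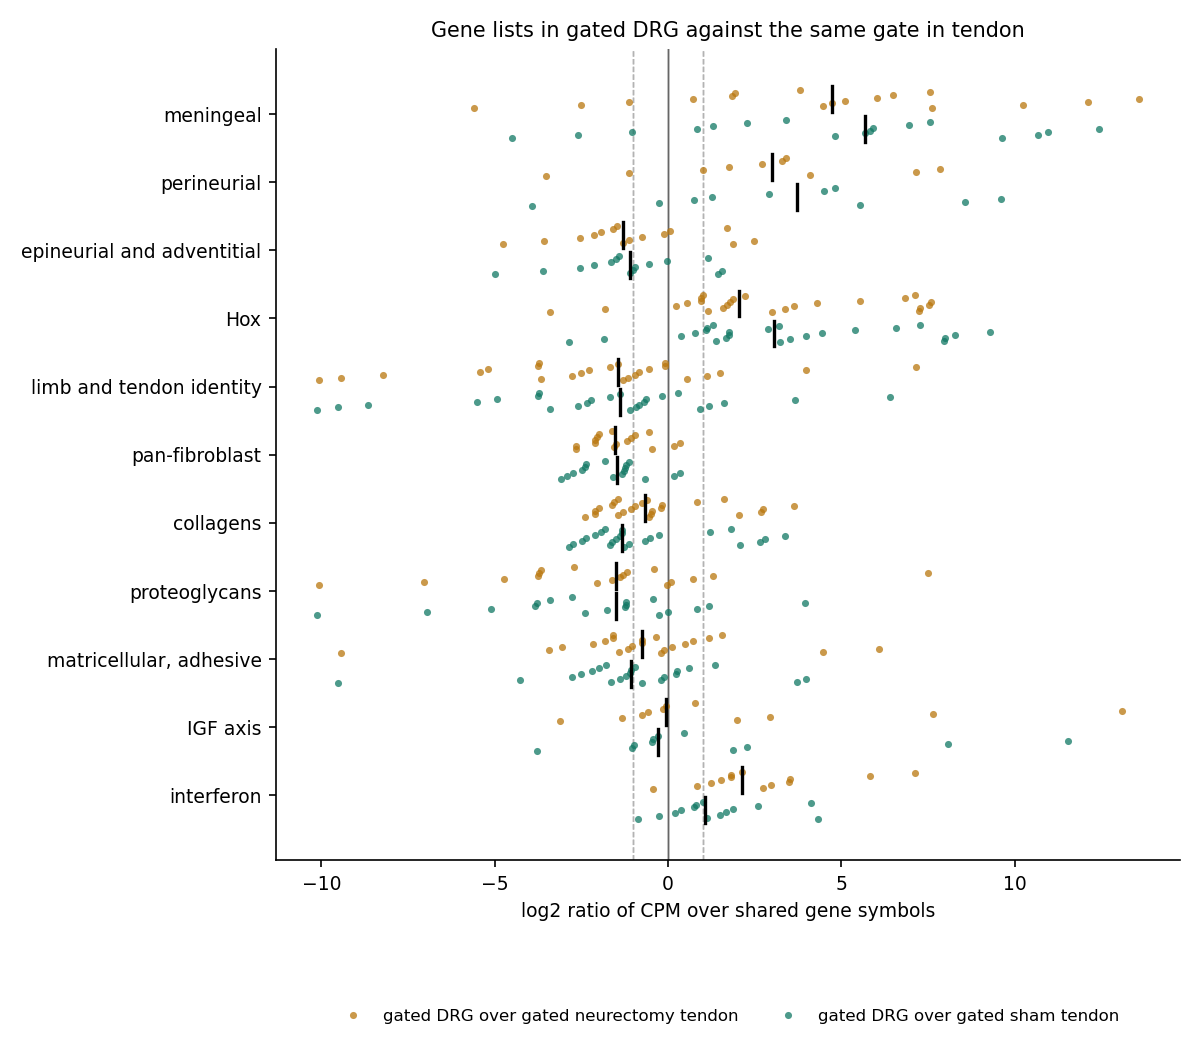
Log2 ratio of CPM over shared symbols for 11 lists, gated DRG over gated neurectomy tendon (upper, ochre) and over gated sham tendon (lower, green). Points are genes that entered, black bars list medians and dashed lines mark 2-fold, with genes at 0 UMIs in 1 set drawn at their bound. The meningeal medians are 4.73 against neurectomy and 5.67 against sham, and the collagen medians -0.68 and -1.34.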

How the data were processed

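Single-cell RNA libraries of mouse ganglion and Achilles tendon were analysed from the deposited matrices, whose values are raw UMI counts per gene and barcode deposited by the authors (Cell Ranger 8.0.1 is given in the file headers). The submitters' processing notes list mm10 and GRCm39 as builds and tie neither to a library. Barcodes with at least 1000 UMIs were used as deposited, and no clustering and no doublet caller was run. In an alternative, barcodes over 0.5% in a marker list of another cell type were left out of the gated sets. They were kept in the Ccl11/Smoc2 and other DRG sets. Depth was 239515477 UMIs in DRG, 79750679 in neurectomy tendon and 133570956 in sham tendon, with medians of 3422, 1212 and 1065 UMIs per barcode.

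UMIs were summed over the barcodes of a set and scaled to CPM (Python 3.11.15, numpy 2.4.6, scipy 1.17.1). A gene entered with at least 50 summed counts and 10 CPM in the higher set, and was called at 2-fold. Ratios have exact conditional 95% intervals. TMM factors came from edgeR 4.0.16 as an alternative scale. The calls were tested on simulated summed counts with counting error alone and known changes larger than 2-fold. Changes near 2-fold and spread among barcodes or libraries were not part of that test. Libraries have 33696 tendon and 35980 DRG features, and were joined by symbol. Members and lists were chosen with earlier results of these data known. Beside the listed genes, the rule named the 12 highest and 12 lowest ratios of at least 50 CPM. The genes of the splits within the gate, and further examples from the lists, were chosen after their values were seen.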

Additional observations from a re-analysis of the deposited data

Results flagged for a closer look

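The DRG feature table holds an entry for the viral vector, which is in no gene list above and was left out of the named genes. It did meet the entry rule in the 2 comparisons within the DRG library, and was counted there among the lower genes. Gated DRG barcodes held 17 UMIs of it, in 4 of 641 barcodes (0.624%, exact 95% interval 0.170% to 1.59%), with at most 10 in a barcode. It was found in 35 of 933 Ccl11/Smoc2 barcodes (3.75%, 2.63% to 5.18%) and in 327 of 2664 barcodes with at least 2 Rbfox3 UMIs (12.3%). The result is listed because a signal appeared in a feature of the vector, with no uninjected ganglia to set it against. The median depths were 4444 UMIs in gated DRG, 3637 UMIs in Ccl11/Smoc2 and 53603 UMIs in Rbfox3 barcodes, and free vector RNA was not tested as a source.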

How the results depend on the processing

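The share of DRG barcodes in the gate, 2.87%, was 3.57% with a minimum of 2000 UMIs, 2.08% with at least 10 Mgp UMIs, 3.55% with no excluded gene and 1.50% when each barcode was thinned to 1000 UMIs first. When genes entered from a summed count of 10 with no CPM minimum, 1945 genes were higher and 1355 lower against Ccl11/Smoc2 barcodes, 8691 and 4554 against other DRG barcodes, 2823 and 2166 against neurectomy tendon, and 3018 and 2017 against sham tendon. That setting admits more genes by construction. Weighting barcodes equally gave 1282 genes higher against other DRG barcodes. The log2 ratio of Camp against Ccl11/Smoc2 barcodes changed sign to -0.037 without the barcodes rich in other markers, and that of Sfrp2 to -0.0011 when Sfrp4 was not used in choosing them. For Camp, 98.8% of the UMIs of the gated set were in the 1 barcode rich in neutrophil transcripts. The cause for Sfrp2 was not tested. The remaining counts over all genes stayed within 1.5 times under the other alternatives run, which was not so for every count within a list, as given beside those lists. Of 1602 log2 ratios recomputed for single genes, 389 moved beyond their counting interval and the 2 given above changed sign. In 12 cases, over 9 genes, a ratio past 2-fold was no longer past it. Those genes were S100a8, S100a9, Camp, Sfrp2, Fstl1, Jund, Pappa, Igfbp4 and Clec3b. The alternatives run on the counts over all genes included a Ccl11/Smoc2 set that did not use Smoc2, which was added after the data were seen. No paired analysis was possible because each group was 1 library, and for the same reason no library could be left out. Depth limits the detection of single transcripts per barcode, so a barcode without a UMI may still express the gene.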
